A study of Rattus norvegicus with 12 samples.

Results

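Liver mRNA of 5 serine genes, 3 for its synthesis and 2 for its breakdown, was measured in 12 arrays, 1 for each of 12 adult male Wistar rats. The genes were chosen for these roles, Phgdh, Psat1 and Psph for synthesis and Sds and Sdsl for breakdown, and their probes were found by RefSeq accession. They are 5 of 39002 genes on the array, read by 7 of its 45598 probes. A probe without a matched symbol was counted as a gene under the array's own name for it. Of these probes 6 passed the filter on dim spots, and all 5 genes were among the 21874 genes tested. Of the genes tested 11400 had a symbol, and shares over all genes below include those without one. For 4 weeks, 6 rats received a control diet whose protein was 14% casein and 6 a diet with 5% casein and equal energy, called low protein here; no other treatment was given to either group, as far as the labels say. The labels number the samples within each diet, and each number is taken as 1 rat, hybridised to 1 single-colour array. Liver RNA is a mixture of cells, so fewer cells of a type and less RNA per cell cannot be told apart.

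Serine is made from the glycolytic intermediate 3-phosphoglycerate. Phgdh, phosphoglycerate dehydrogenase, oxidises it to phosphohydroxypyruvate, Psat1, phosphoserine aminotransferase, adds an amino group from glutamate, and Psph, phosphoserine phosphatase, removes the phosphate and releases serine. Sds, serine dehydratase, runs the other way, turning serine into pyruvate and ammonia and also acting on threonine; it is known as a liver enzyme of the periportal zone that supplies gluconeogenesis when protein is plentiful. Sdsl is a related, serine dehydratase-like protein. In GRCr8, the RefSeq rat assembly, Sds and Sdsl are neighbours on the chromosome.

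The 3 synthesis genes were higher together in low protein livers, so the DNA just before their start sites is shown. Each stretch is the 250 bases upstream of the start in the RefSeq annotation of GRCr8, 5′ to 3′ on the gene's own strand, at chr2:188624790-188625039 (minus strand) for Phgdh, chr1:222645409-222645658 (minus strand) for Psat1 and chr12:32526841-32527090 (plus strand) for Psph. Capitals mark a match to GATGCAA on either strand.
Phgdh: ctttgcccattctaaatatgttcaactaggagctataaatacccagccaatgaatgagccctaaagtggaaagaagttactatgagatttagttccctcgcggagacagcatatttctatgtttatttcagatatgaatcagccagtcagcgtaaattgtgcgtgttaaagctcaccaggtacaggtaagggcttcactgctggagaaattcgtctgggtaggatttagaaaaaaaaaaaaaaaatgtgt
Psat1: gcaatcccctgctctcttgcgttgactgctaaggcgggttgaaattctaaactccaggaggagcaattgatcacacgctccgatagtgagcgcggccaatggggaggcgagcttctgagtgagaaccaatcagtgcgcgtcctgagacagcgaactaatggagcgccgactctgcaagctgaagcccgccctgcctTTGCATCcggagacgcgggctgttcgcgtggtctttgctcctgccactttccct
Psph: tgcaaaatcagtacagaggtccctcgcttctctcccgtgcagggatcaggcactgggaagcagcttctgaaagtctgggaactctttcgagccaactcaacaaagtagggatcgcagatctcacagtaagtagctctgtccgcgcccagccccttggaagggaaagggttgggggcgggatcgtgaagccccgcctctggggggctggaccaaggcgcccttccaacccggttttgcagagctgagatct
In windows from 250 bases before to 50 after the start, neither strand held TGATGNAA, the composite element bound by C/EBP and ATF proteins, in any of the 3 genes, against 3.98% of all 33469 windows. TGACGTCA, the cAMP response element, was absent from the 3 windows too, against 1.83% of all. GATGCAA, a core of the first element that was searched for only after these windows had been read, occurred once, 54 bases before the Psat1 start on the opposite strand, and in 2.56% of all windows. These matches describe letters in short windows, and Sds and Sdsl were not included.

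Phgdh, Psat1 and Psph were all higher in every low protein rat than in any control rat, and Sds and Sdsl were lower in every one. Levels are given as log2 of the processed intensity less the 75th percentile of the array, so 0 is the brightness of that percentile, and levels of different probes are not compared. Tests were limma's, with p-values adjusted by Benjamini-Hochberg over all 21874 genes and a gene called changed at an adjusted p under 0.05, which 6.53% of genes were (3.48% higher and 3.05% lower in low protein). The diets did not overlap in 4.98% of genes (3% higher and 1.98% lower). The p-values measure the spread between these rats. All 5 serine genes passed, 3 as higher and 2 as lower.

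Phgdh, the entry enzyme of serine synthesis, had levels of -3.32 to -1.38 (median -3.02) in control rats and 4.04 to 4.43 (median 4.29) in low protein rats. On a linear scale its probe reached 9.98% to 38.3% of the 75th percentile in control livers and 1647% to 2153% in low protein livers. The lowest low protein rat was thus 5.43 log2 units above the highest control rat. The difference was 6.92 ± 0.30 (SE, n = 6 rats per diet, 95% interval 6.26 to 7.57, limma adjusted p = 1.4e-07), or 121-fold, and 1 of all tested genes differed by more.

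The array carries this Phgdh probe in 10 spots, which share the RNA, labelling and hybridisation of their array. Over the 7 to 10 spots used per array, the coefficient of variation was 2.73% to 5.83% in control rats and 2.86% to 4.11% in low protein rats. On the log2 scale the SD between spots was 0.04 to 0.08 in control rats, while the SD between those rats was 0.80.

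A dimmer, single-spot Phgdh probe had levels of -8.09 to -6.62 in control rats and -1.52 to -1.02 in low protein rats. It was well above background in all low protein rats and in 2 control rats, rats 5 and 6, the same 2 that were highest on the bright probe. Its measured group means were -7.45 and -1.28. It passed the filter only through the low protein rats, and 4 of its control values were not well above background, so these levels are a description and no support for the bright probe.

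Psat1, which transaminates the product of Phgdh, had levels of -2.96 to -0.11 (median -2.16) in control rats and 2.15 to 2.66 (median 2.40) in low protein rats. Control rats 5 (-0.11) and 6 (-1.34) were the highest of their group, as for Phgdh, and still 2.26 or more below every low protein rat. The difference was 4.29 ± 0.39 (SE, 95% interval 3.45 to 5.13, limma adjusted p = 7.88e-05), or 19.6-fold. A further Psat1 probe was not well above background on any control array and was so on 4 low protein arrays, so it did not pass the filter. Against the lowest signal called well above background on each control array (or its own value if higher), its mean over all 6 low protein rats was 2.70-fold higher. That signal is the lowest of any probe, so this fold is a description and no lower limit. The measured group means of this probe were -8.92 and -6.57. The 2.70-fold is taken against that lowest signal and the 19.6-fold of the bright probe from measured means, so they are not compared. Whether the further probe reads the same transcripts was not tested.

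Psph, the last enzyme of the route, moved far less, with levels of -1.24 to -0.73 (median -0.83) in control rats and -0.13 to 0.35 (median 0.19) in low protein rats. The groups were separated by 0.60 log2 units. The difference was 1.05 ± 0.12 (SE, 95% interval 0.80 to 1.31, limma adjusted p = 0.000385), or 2.07-fold. Of all tested genes, 1.47% differed by more, against 0.0549% for Psat1 and 0.00457% for Phgdh.

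Sds, the dehydratase, had levels of -0.56 to 4.10 (median 0.66) in control rats and -5.45 to -2.56 (median -4.36) in low protein rats. The probe was well above background on all 12 arrays, at 28.3 to 223 intensity units in low protein rats. The difference was -5.19 ± 0.74 (SE, 95% interval -6.80 to -3.58, limma adjusted p = 0.00194), so Sds was 36.5-fold lower, and only 0.0229% of genes differed by more. The standard error was the widest of the 5 genes. Without control rat 6, the highest, the difference was -4.59.

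Sdsl, its relative and neighbour, had levels of 1.17 to 1.59 (median 1.30) in control rats and 0.64 to 1.05 (median 0.96) in low protein rats. The groups were only 0.11 log2 units apart at their nearest rats, and low protein rat 4 (0.64) lay below the others of its group. The difference was -0.41 ± 0.09 (SE, 95% interval -0.61 to -0.21, limma adjusted p = 0.0222), or 1.33-fold lower, and 12.1% of genes differed by more. This call was lost without scaling between arrays (-0.28, adjusted p = 0.258), where the processed intensities were 2221 to 3210 in control and 1921 to 2550 in low protein rats and overlapped. It was also lost without the filter on dim probes (adjusted p = 0.0719).

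**Figure D1:**
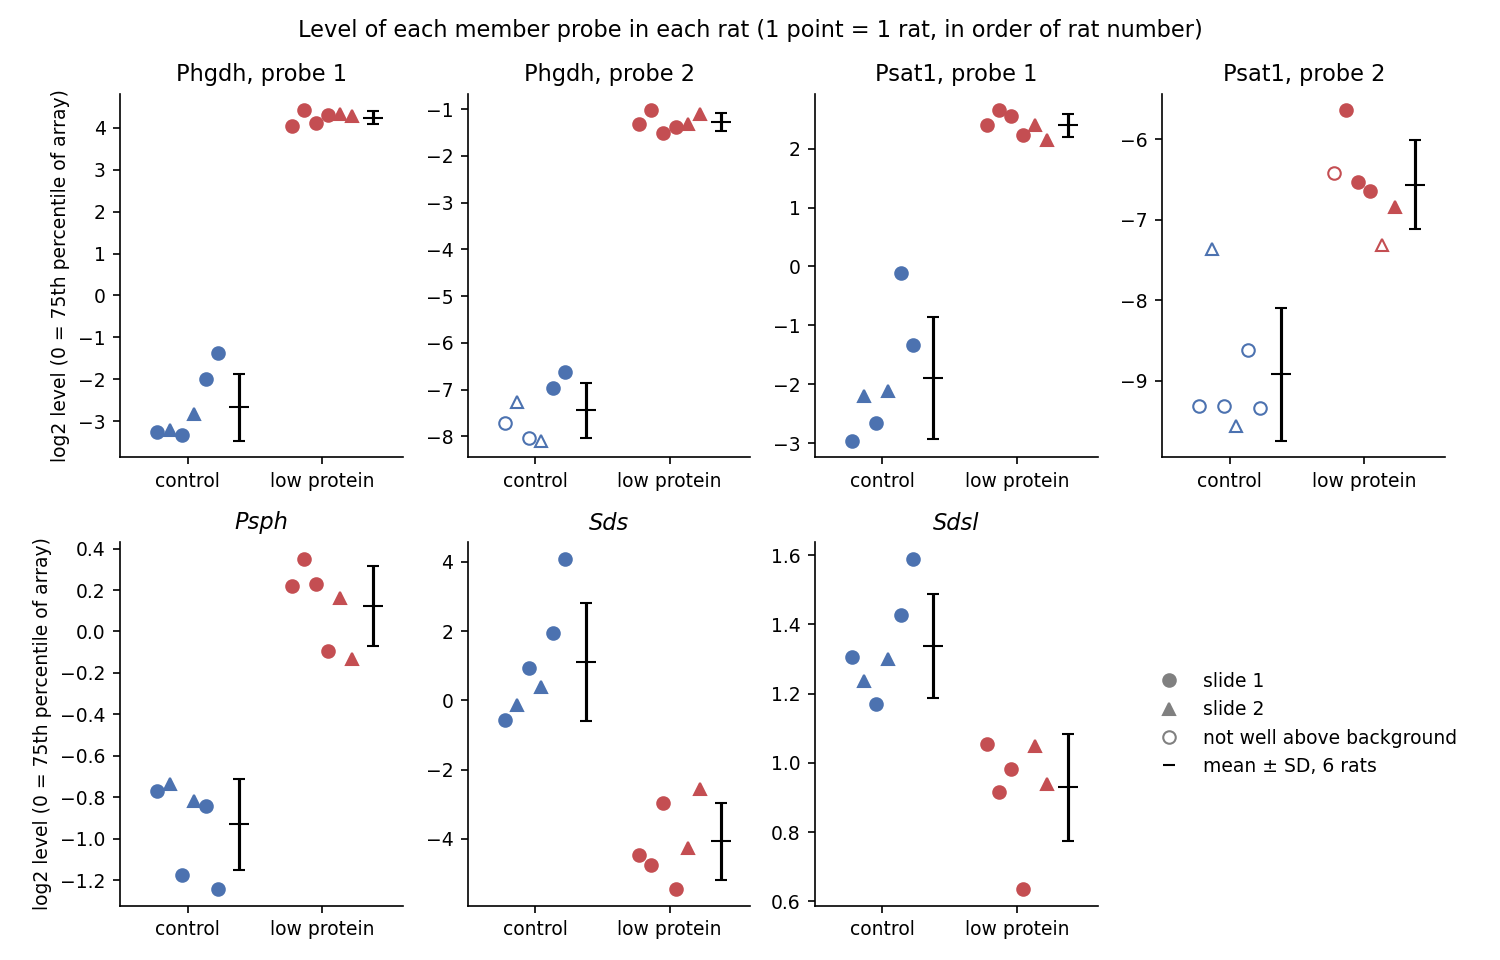
Log2 level (0 is the 75th percentile of the array) of the 7 probes of the 5 genes in each of 6 control and 6 low protein rats; circles are slide 1, triangles slide 2, open symbols spots not well above background, and black bars the mean ± SD. The diets do not overlap in the 5 panels of probes well above background in every rat, with the widest scatter for Sds, from -0.56 to 4.10 in control rats; the order of open symbols has no meaning.

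**Figure D2:**
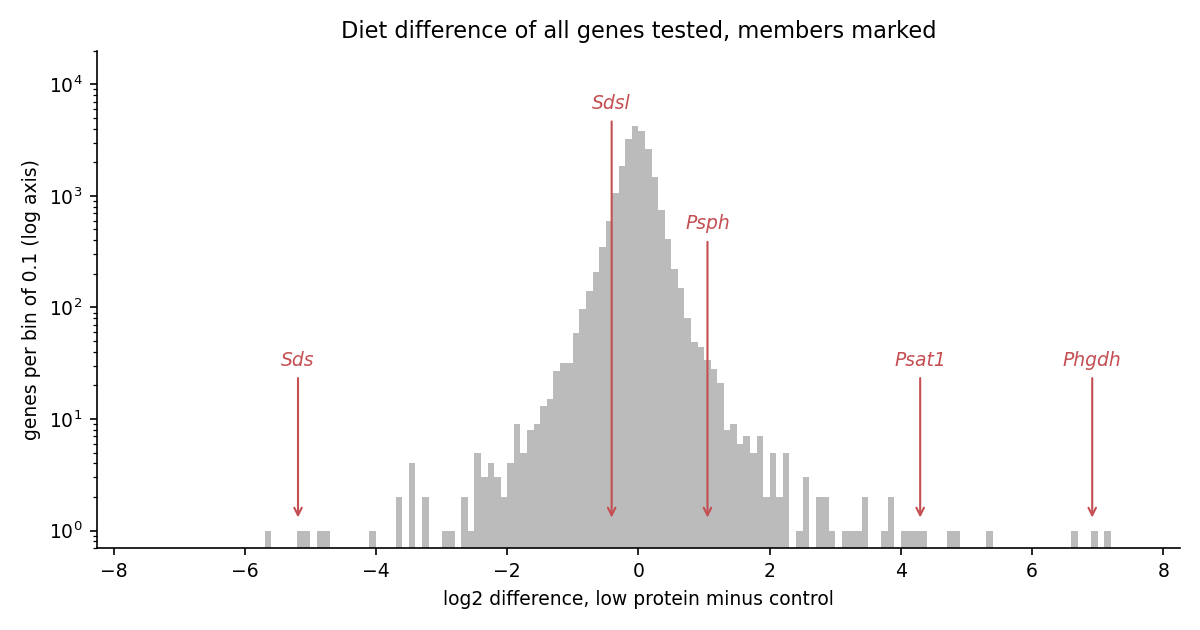
Histogram of the log2 difference, low protein minus control, of the 21874 genes tested, in bins of 0.1 with the gene count on a log axis; arrows mark the 5 serine genes. Phgdh (6.92), Psat1 (4.29) and Sds (-5.19) lie in the sparse tails, and Psph (1.05) and Sdsl (-0.41) nearer to the bulk.

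An exact two-sided permutation test over all assignments of rats to diets gave p = 0.00216 for each of the 5 genes, the smallest it can give with 6 rats per diet. Groups that do not overlap always give this value, so it adds nothing to the separation already described. The arrays lay on 2 slides, scanned separately, with 4 control and 4 low protein rats on slide 1 and 2 of each on slide 2. On slides 1 and 2 the differences were 6.71 and 7.33 for Phgdh, 4.22 and 4.43 for Psat1 and 1.18 and 0.79 for Psph. For the dehydratases they were -6.01 and -3.54 for Sds and -0.48 and -0.27 for Sdsl. Control rats 5 and 6, the highest for Sds, were both on slide 1. In limma's test of whether the diet difference itself differed between slides, no member passed (unadjusted p from 0.133 for Psph to 0.818 for Psat1, adjusted p = 1.00 for each), nor did any other of the genes tested.

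The rats of a diet were unequally spread. Phgdh had an SD of 0.80 in control rats, larger than that of 98.2% of genes, and of 0.15 in low protein rats, larger than that of only 25.0%. For Psat1 the SDs were 1.03 and 0.19, larger than those of 99.3% and 41.4% of genes. Sds kept a wide spread in both diets (1.71 and 1.10, larger than 99.9% and 98.9%), 25.3-fold between the lowest and the highest control rat and 7.43-fold between low protein rats. Psph (0.22 and 0.19) stood near the median gene (0.20 in control and 0.22 in low protein rats), and Sdsl (0.15 and 0.15) was spread less, more than only 31.9% and 28.5% of genes. These spreads are descriptions, and their difference between diets was not tested.

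Within control rats, Phgdh and Sds were both highest in rat 6 and next in rat 5, although the diet difference of the genes had opposite signs. The Pearson correlation of Phgdh and Sds over the 6 control rats was 0.92 (exact permutation p = 0.0153, adjusted p = 0.102 over 20 relations) with a Spearman rho of 0.66 (exact permutation p = 0.175, adjusted 0.583). It rested on rats 5 and 6, since without the 2 rats farthest from the median of Phgdh it was 0.07. Phgdh and Sdsl gave r = 0.96 (exact permutation p = 0.00694, adjusted 0.0694) and rho = 0.83 (exact permutation p = 0.0583, adjusted 0.292), with r = 0.58 without those rats. Phgdh and Psat1 gave r = 0.78 (exact permutation p = 0.0458, adjusted 0.183) and rho = 0.89 (exact permutation p = 0.0333, adjusted 0.222), with r = 0.69 without them. After slide means were removed these r values were 0.92, 0.95 and 0.78.

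Within low protein rats, Psat1 and Psph were both highest in rat 2 and lowest in rats 4 and 6, with r = 0.96 (exact permutation p = 0.00139, adjusted p = 0.0278 over the 20 relations), the only relation to pass. Its Spearman rho was 1 (exact permutation p = 0.00278, adjusted 0.0556), its r was 0.95 after slide means were removed and 0.89 without the 2 rats farthest from the median of Psat1. Phgdh and Sds had r = -0.31 in these rats (exact permutation p = 0.564, adjusted 0.752) and rho = -0.37 (exact permutation p = 0.497, adjusted 0.710). Phgdh and Psat1 had r = 0.07 (exact permutation p = 0.876, adjusted 0.904) and rho = 0.14 (exact permutation p = 0.803, adjusted 0.803), over a range of only 0.39 for Phgdh. Without the 2 rats farthest from the median of Phgdh, these were -0.44 with Sds and 0.996 with Psat1, so the second value rested on which rats were included. Whether relations differed between the diets was not tested.

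**Figure D3:**
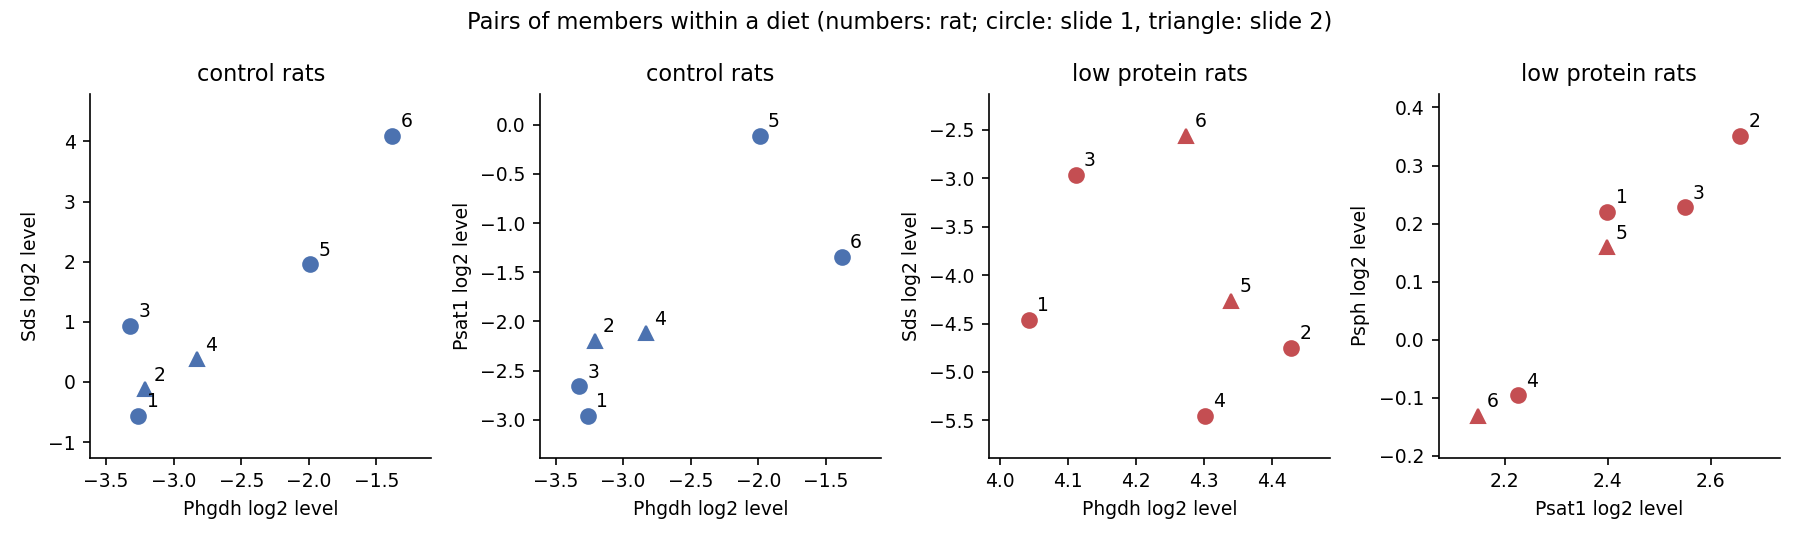
Log2 levels of pairs of serine genes within a diet, 1 point per rat with its number, circles for slide 1 and triangles for slide 2: Phgdh with Sds and with Psat1 in control rats, and Phgdh with Sds and Psat1 with Psph in low protein rats. Control rats 5 and 6 stand at the upper right of both control panels, and Psat1 and Psph line up in low protein rats (r = 0.96).

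Among 11198 other genes with a symbol, Asns, which makes asparagine, had the profile most like that of Phgdh over the 12 arrays (r = 0.99), followed by the amino acid transporter subunit Slc3a2 (0.99) and the glycyl-tRNA synthetase Gars1 (0.99). These values mostly carry the diet difference itself, and 78 genes had r of at least 0.9. With each diet's mean subtracted, the nearest were Myo7b (0.88), Aga (0.88) and again Asns (0.88), and none reached 0.9. For Sds the nearest over the 12 arrays were Slc38a4, a transporter of neutral amino acids (0.98), the liver glutaminase Gls2 (0.97) and Gnat1 (0.95). With diet means subtracted they were the mitochondrial genes Mul1 (0.94) and Opa1 (0.93) and Agxt, which transaminates serine and glyoxylate (0.92). All these genes were picked as the nearest of 11198, so their high r values follow from the search and are a description. The diet difference of Agxt was 0.07 ± 0.14 (limma adjusted p = 0.83), with -0.09 on slide 1 alone.

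Some neighbours of Psat1, Psph and Sds on the chromosome were looked up after the values were known. Tle4 and Cep78, beside Psat1, were at -0.02 (limma adjusted p = 0.926) and 0.45 (0.118), Cct6a, beside Psph, at 0.18 (0.223), and Plbd2, on the far side of Sds from Sdsl, at -0.07 (0.828). None of these 4 passed.

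Genes around the route are described by list, with counts and medians and no test of a list. Over all genes tested the median difference was -0.03, 3.48% were called higher and 3.05% lower, and 21.6% had an unadjusted p under 0.05, so 0 or 1 call in a short list is near the background. Of 12 measured genes that pass serine's carbon to glycine and one-carbon units, 4 rose and 1 fell (median 0.11). Mthfd2, a mitochondrial folate enzyme, rose by 3.81 ± 0.32 (adjusted p = 5.54e-05). Mthfd1l, a further one, was not well above background on any control array. It passed the filter only through the low protein rats, so its place among the 4 rises is a description. Against the lowest signal called well above background on each control array (or its own value if higher), its low protein mean was 3.84-fold higher. That signal is the lowest of any probe, so the fold is no lower limit. The measured means of Mthfd1l were -7.98 and -5.92 (limma adjusted p = 0.00027). Shmt2 (0.49 ± 0.12, adjusted p = 0.0344), which splits serine in mitochondria, rose too. Mthfd1 (0.38, adjusted p = 0.0448), a cytosolic folate enzyme, and Gcsh of the glycine cleavage system (-0.28, adjusted p = 0.0397) were the other changed genes, named after their values were seen. The measured difference of Mthfd1l, 2.07, was 0.26 after normexp background correction (adjusted p = 0.122) and 0.64 in the deposited value table. Shmt2 missed the threshold on slide 1 alone (adjusted p = 0.146), without the filter on dim probes (0.0965) and without control rat 3, 4, 5 or 6 or low protein rat 1, 2, 4 or 5 (adjusted p up to 0.0748), and the list held 2 rises in each of these. Of 8 other enzymes that use serine, 1 rose, Sars1 (0.78 ± 0.09, adjusted p = 0.000429), which charges its tRNA, and none fell (median 0.07).

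None of 5 genes of the hydroxypyruvate and glyoxylate route passed limma's test (median -0.09, 1 at an unadjusted p under 0.05), with Agxt2 at -0.21 (adjusted p = 0.207) and Hao1 at -0.09 (0.558). Hao1 was at 0.04 without scaling between arrays. Of the threonine routes other than dehydratase only Gcat was measured, at -0.38 (adjusted p = 0.0606). It passed after quantile normalization (-0.40, adjusted p = 0.0396) and with the replicate block (0.0486). The same held with the percentile taken over probes detected on all arrays (-0.42, adjusted p = 0.0292). Gcat passed too with limma's trended robust spread (0.0381) and without low protein rat 1 (0.0483), and in no other alternative. Among 9 serine transporters none rose and Slc38a4 fell (-0.76 ± 0.12, adjusted p = 0.00376, list median -0.16).

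The route is fed by glycolysis and drained towards glucose. None of 7 genes of lower glycolysis, which supplies 3-phosphoglycerate, passed limma's test, and 0 had an unadjusted p under 0.05 (median -0.01), with Eno1 at 0.21 (adjusted p = 0.319) and Pgk1 at -0.13 (0.551). Of 8 genes of gluconeogenesis from pyruvate, the product of Sds, 2 rose and none fell (median 0.11). These were Pck2, the mitochondrial PEP carboxykinase (1.54 ± 0.14, adjusted p = 0.0001), and Pc, pyruvate carboxylase (0.31 ± 0.07, adjusted p = 0.0277). Not called were Pck1, the other PEP carboxykinase, at -0.81 (limma adjusted p = 0.115) and Mpc1 at -0.33 (0.0535), both named after their values were seen. Of the 8 genes, 5 were positive, so the list did not move in 1 direction. Pc missed the threshold after quantile normalization (0.21), with the replicate block (adjusted p = 0.0635), without the filter on dim probes (0.0975), on slide 1 alone (0.128) and without control rat 2, 3, 4 or 5 or low protein rat 1 or 2.

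Sds is known to respond to glucagon and glucocorticoids, and ATF4 is known to drive Phgdh, Psat1 and Psph. Of 14 glucagon and glucocorticoid responsive genes and receptors, 1 fell, tyrosine aminotransferase Tat (-2.02 ± 0.32, adjusted p = 0.00361), and none rose (median -0.32, 6 at an unadjusted p under 0.05), a count of falls that ran from 0 to 2 over the alternatives. Of 22 measured genes in the list of ATF4 and its targets, the serine genes left out, 12 rose and none fell (median 0.96), Mthfd2 from the one-carbon list among them. In all 16 of the 22 were positive. Among those not called were Cth (-0.65, limma adjusted p = 0.0697), Sesn2 (-0.39), Ddit3 (-0.13), Gpt2 (-0.08), Chac1 (0.13) and Atf3 (0.17). The part of ATF4 in the rise of the serine genes was not tested. Slc7a11, among the 12, was well above background in only 3 control rats. It passed the filter only through the low protein rats, so its place among the 12 rises is a description. The smallest adjusted p-values were those of Pycr1 of proline synthesis (2.83 ± 0.13, adjusted p = 2.05e-07), the translation repressor Eif4ebp1 (1.25 ± 0.08, adjusted p = 7.5e-06) and Slc3a2 (1.88 ± 0.13, adjusted p = 7.5e-06). The largest rise in the list was that of Asns, 4.75 ± 0.35 (adjusted p = 1.25e-05). The difference of Phgdh was thus larger than that of any measured gene in these lists, where the widest was that of Asns.

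**Figure D4:**
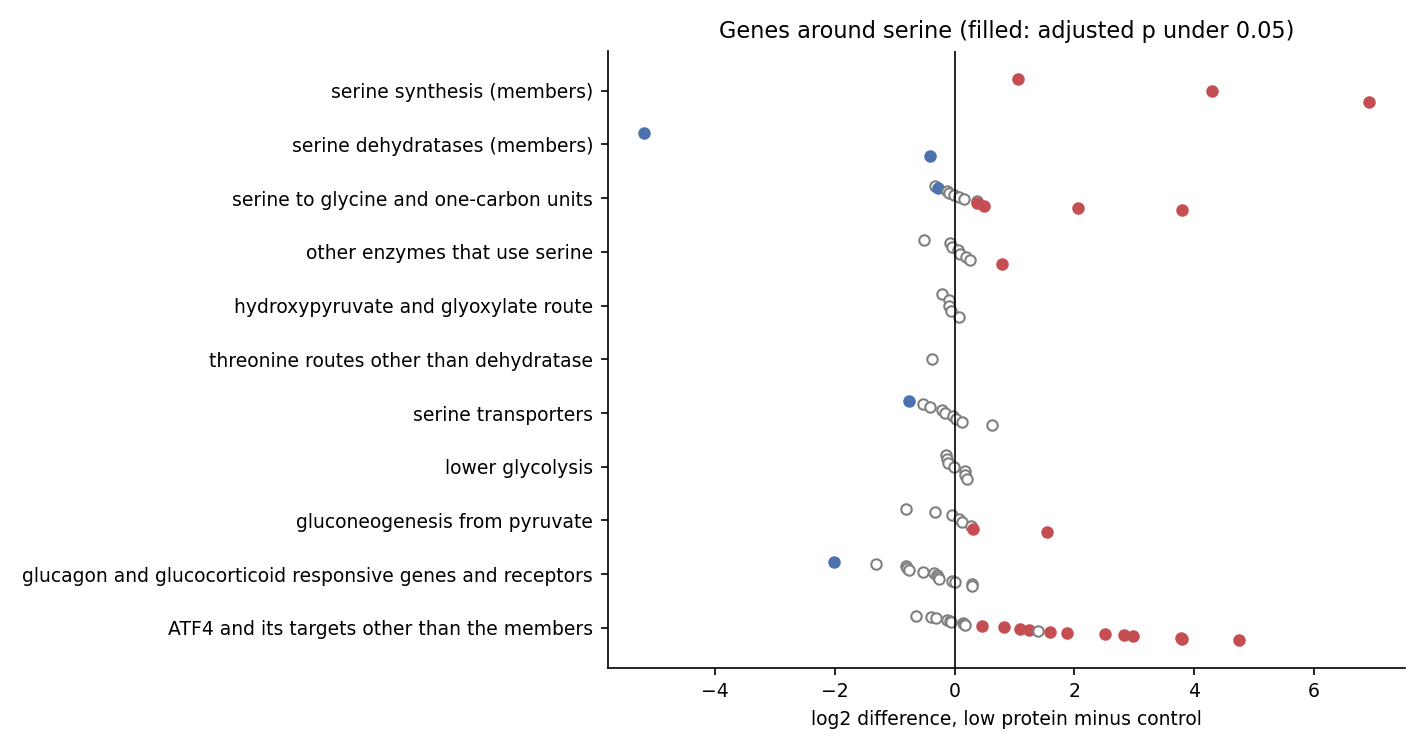
Log2 difference, low protein minus control, of each measured gene in the lists around serine, with the 5 serine genes in the 2 top rows; filled points passed limma's test at an adjusted p under 0.05 (red higher, blue lower), open points did not. The ATF4 list has 12 filled points to the right, and the hydroxypyruvate and lower glycolysis lists have none.

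Markers of liver cells were measured on the same arrays. All 8 hepatocyte markers were well above background on every array, with 2 lower (Apoa1 at -0.84 and Cps1 at -0.68) and none higher (median -0.17), and their summed linear level was 713 to 813 in control and 602 to 771 in low protein rats. Of 9 periportal markers, the zone in which Sds is known to lie, 4 fell (Aldh1b1 at -1.26, Ass1 at -0.95, Gls2 at -0.79 and Hal at -0.50) and none rose (median -0.61), with summed levels of 184 to 241 in control and 143 to 170 in low protein rats, which do not overlap. Of the 4 not named so far besides Pck1, Hsd17b13 was the 1 positive periportal marker (0.30, limma adjusted p = 0.085), and Arg1 was at -0.14 (0.354). Of 8 measured pericentral markers 1 fell, Oat (-2.18), by more than any periportal marker, and none rose (median -0.15), with sums over 9 of 76.2 to 113 and 58.2 to 96.9, and Lgr5 was not well above background on any array. Of these 8 markers 3 were positive, Rhbg the most (0.56, limma adjusted p = 0.106). The part of these shifts in the fall of Sds was not tested.

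Markers of cells other than hepatocytes were read in the same way. None of 8 Kupffer cell markers passed, though all were negative (median -0.36, 6 at an unadjusted p under 0.05, sums 25.2 to 49.7 in control and 25.5 to 34.2 in low protein rats). None of 6 sinusoidal endothelial (sums 12.8 to 15.8 and 13.4 to 16.0), 6 stellate (3.07 to 3.90 and 2.87 to 3.88), 6 cholangiocyte (0.36 to 0.55 and 0.30 to 0.99) or 4 erythroid markers (76.8 to 147 and 79.2 to 139) passed either. Of 2 measured genes in the lymphocyte list, Ptprc fell (-0.43) and Cd3d did not pass (-0.12, limma adjusted p = 0.549). Sums over 5 on the array were 0.40 to 0.64 and 0.36 to 0.43, and Cd2 was not well above background on any array. Of 2 measured adipocyte markers 1 rose, Cidec, which fat-storing hepatocytes also express, with sums over 5 of 0.79 to 1.38 and 1.45 to 2.08, while Adipoq, Lep and Plin1 were not well above background on any array. None of 4 measured pancreatic acinar markers passed (sums over 7 of 45.7 to 54.6 and 42.3 to 55.9), and Cpa1, Pnlip and Prss1 were not well above background on any array.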

How the data were processed

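Liver RNA, labelled with Cy3, was hybridised to 1-colour Agilent arrays. Per the file headers, the authors used Agilent Feature Extraction 12.0.3.1, and the deposited scanner files hold background-subtracted, detrended processed intensity, not scaled between arrays. The deposited value table equals the median intensity at 100% of spots. Probes were named through unversioned RefSeq accessions of GRCr8 (21215 of 45598 matched, 46.5%). The headers name an older build, so no coordinates of the arrays were used.

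Values were log2 processed intensity less the array's 75th percentile (942 to 1317 units) over 58717 gene spots (61.2% to 69.9% of them above background by the scanner's call). Outlier-marked spots (453 to 739 per array) were left out, no spot was saturated, and replicate spots were averaged. A probe was kept if that call was positive in 5 or more of the 6 rats of either diet, and the brightest probe per gene was tested with limma 3.58.1 in R 4.3.3 (Python 3.11.15, pandas 2.3.3, matplotlib 3.10.9 for figures, the package data.table, version 1.17.8). The median SE was 0.13, and the number of arrays limits the precision. The test was checked on simulated data.

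The members, the gene lists and the tests were chosen with earlier results of these data known. Genes named were the 5 members, per list up to 3 changed genes with the smallest adjusted p (or 2 with the smallest p where none changed), and the 3 genes most correlated with Phgdh and with Sds in each way of measuring. Neighbours, markers and some further list genes were named beyond that rule after their values were seen. The labels do not say whether equal rat numbers pair the diets, and the main test used no pairing. A planned comparison of the proteins was not run. Alternatives are given in the closing section. Metabolite and PCR data were not analysed here.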

Additional observations from a re-analysis of the deposited data

Results flagged for a closer look

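Sdsl in low protein rat 4 stood apart from the other 5 rats of its diet. Its level of 0.64 lay below the others by 0.668 of the whole range of the group, past Dixon's critical value for 6 samples, a limit that chance passes in about 1 in 20 groups. The same rat had the lowest Sds level of its diet, -5.45, and without it the difference of Sdsl was -0.35 (limma adjusted p = 0.0324). The other groups of values of the 7 probes held no such rat.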

How the results depend on the processing

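No alternative reversed the direction of the 5 serine genes. Phgdh ranged from 6.44 (normexp background correction) to 7.33 (slide 2 alone), Psat1 from 4.01 (normexp background correction) to 4.65, Psph from 0.79 to 1.18, Sds from -6.01 (slide 1 alone) to -3.54 (slide 2 alone) and Sdsl from -0.48 to -0.27. The dimmer Phgdh probe on its own, at 6.17, is left out of that range as a description only. On slide 2 alone, with 2 rats per diet, none of the 5 passed: Phgdh 7.33, Psat1 4.43, Psph 0.79, Sds -3.54 and Sdsl -0.27, and limma called 0 genes (2110 at an unadjusted p under 0.05). Sdsl also missed the threshold on slide 1 alone (-0.48), without scaling (-0.28), without the filter on dim probes (-0.41) and at an adjusted p under 0.01 (-0.41); it is the only member of which this holds beyond slide 2. After normexp, Phgdh was at 6.44, Psat1 at 4.01, Psph at 0.95, Sds at -4.35 and Sdsl at -0.39.

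The count of changed genes, 1429, was 891 without scaling, where the median of all genes moved to 0.11 and 76.2% of calls were higher (53.3% in the main setting, 40.2% with the percentile taken over probes detected on all arrays), 618 without the filter, 437 at 0.01 and 151 on slide 1 alone. Leaving out 1 rat each gave 854 (control rat 3) to 1310 genes, 6.78 to 7.17 for Phgdh, 4.08 to 4.65 for Psat1, 0.99 to 1.10 for Psph, -5.53 to -4.59 for Sds and -0.44 to -0.35 for Sdsl, all of which passed each time. The other reversals were near 0: Agxt was -0.0909 on slide 1 alone and, leaving out 1 rat each, -0.00829 (control rat 1) to 0.175, Hao1 was 0.0380 without scaling, and Mul1 was 0.0747 without scaling, 0.130 on slide 2 alone and, leaving out 1 rat each, -0.108 to 0.00385 (control rat 6). The causes of these shifts were not tested.

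With rat number as a replicate block, 1411 genes changed, all 5 serine genes passed, Sds was at -5.19 ± 0.41 and Sdsl at an adjusted p of 0.0415. Without the block the SE of Sds was 0.74. Correlations of deviations of same-numbered rats were 0.03 to 0.26, and 2 of the 6 low protein rats correlated best with their own number. These values cannot decide whether the numbers pair the diets. Over 27 alternatives, the count of rises stayed within 1.5 times of the reported one in 26 for the ATF4 list, 15 for the one-carbon list (0 to 4 rises) and 15 for gluconeogenesis (0 to 3), and the count of falls in 11 for the one-carbon list and 15 for the glucagon list (0 to 2). Dim probes, such as the dimmer ones of Phgdh and Psat1, are limited by signal over background.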
